A study of Arabidopsis thaliana with 6 samples.

Results

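ICL, SDP1 and AIM1 are 3 genes of oil mobilization, the process by which a germinating seed turns its stored triacylglycerol into sugar. They are 3 of the 13286 genes that could be named here and were read by a single-gene probe set on an Affymetrix GeneChip array. ICL (AT3G21720) encodes isocitrate lyase, SDP1 (AT5G04040) a triacylglycerol lipase and AIM1 (AT4G29010) a multifunctional protein of fatty acid beta-oxidation, and each was read by 1 probe set. The choice was made with the array signals and the difference between genotypes in view, so the values of these 3 genes are given below as a description and were not tested. Total RNA came from whole 10-day-old seedlings, in 3 arrays of the homozygous transgenic line HZIP1-2.3, which carries the rice homeobox gene OsHOX24 behind the CaMV 35S promoter (35S::OsHOX24), and 3 arrays of its untransformed Columbia background (WT). All 6 samples were grown on MS medium in a daily cycle of light and dark without stress treatment. The 35S::OsHOX24 arrays represent 1 transformed line, so an effect of the transgene and one of that line cannot be told apart. The rice transgene itself was not analysed here.

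Oil mobilization starts at the oil body, where SDP1 cleaves the first fatty acid from triacylglycerol; the gene's name, SUGAR-DEPENDENT1, refers to mutant seedlings that need added sugar to establish. The fatty acids enter the peroxisome, are activated with coenzyme A and are shortened by beta-oxidation, in which multifunctional proteins such as AIM1 carry out the hydration and dehydrogenation steps. The acetyl units that are released enter the glyoxylate cycle, in which isocitrate lyase splits isocitrate into glyoxylate and succinate and so avoids the carbon-losing steps of the citric acid cycle. ICL is best known from the days after germination, when oil is used up, and from starved or senescing tissue. Beta-oxidation also runs in green tissue, where it takes part in jasmonate synthesis and in the turnover of membrane lipids.

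The authors' signals were computed with MAS5, which subtracts a mismatch signal within each probe set and brings all arrays to a common scale, and are on the log2 scale. Each array had a median of 7.24 to 7.42 (log2), and 163 to 511 probe sets of an array were listed at 0. Correlations over 22746 probe sets were 0.937 to 0.947 between 35S::OsHOX24 arrays, 0.928 to 0.939 between WT arrays and 0.929 to 0.955 across genotypes. For the GAPDH control, the signal at the 3' end minus that at the 5' end, which is larger where fewer 5' ends are read, was 3.29, 3.63 and 2.39 (log2) in replicates 1, 2 and 3 of 35S::OsHOX24, against 3.25, 1.63 and 4.80 in replicates 1, 2 and 3 of WT. The shoot marker RCA, for Rubisco activase, had 14.37 to 14.74 (log2) in 35S::OsHOX24 and 14.28 to 14.69 in WT, and the root beta-glucosidase gene PYK10 had 13.47 to 14.12 in 35S::OsHOX24 and 13.43 to 13.94 in WT. RCA was the 1 measured gene of 7 listed for shoots, and 2 of 6 listed for roots were measured. The other root gene, the root hair expansin gene EXPA7, had 4.69 to 5.45 (log2) in 35S::OsHOX24 and 2.86 to 5.47 in WT. RCA and PYK10 thus had high signals in every array, whereas EXPA7 was lowest in replicates 1 and 3 of WT, at 2.86 and 3.28. With so few markers measured, the share of each organ in an array was not tested. In such bulk tissue, fewer cells of a type and less RNA per cell cannot be told apart.

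ICL was the gene of the 3 with a large difference between genotypes. Its signal was 7.87, 5.94 and 6.97 (log2) in replicates 1, 2 and 3 of 35S::OsHOX24, against 3.36, 2.0 and 2.87 in replicates 1, 2 and 3 of WT. Every transgenic array was above every WT array, and the closest pair, replicate 2 of 35S::OsHOX24 and replicate 1 of WT, was 2.58 apart on the log2 scale. On the linear scale the same signals were 234, 61.3 and 126 in 35S::OsHOX24 and 10.3, 4.01 and 7.30 in WT, for arrays with a trimmed mean of 500.1. The group means were 6.93 ± 0.97 (log2, SD, n = 3) in 35S::OsHOX24 and 2.74 ± 0.69 (SD, n = 3) in WT. The log2 difference was 4.18 with a standard error of 0.59 from limma, an 18.2-fold ratio of the signals as deposited. No detection call was used here, and whether the WT signals were above background was not tested, so that neither this ratio nor the rank that follows is exact. Among the differences of all 22746 probe sets, that of ICL was the largest in the upward direction and ranked 2 by size in either direction.

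The level of ICL was also placed within each array. Its signal was above 57.6%, 36.8% and 46.6% of the probe sets in replicates 1, 2 and 3 of 35S::OsHOX24, against 14.3%, 10.1% and 12.5% in replicates 1, 2 and 3 of WT. ICL thus lay around the middle of the array in the transgenic seedlings, where replicate 1 alone was above its array's median of 7.27, and near the bottom of it in WT seedlings. Low MAS5 signals are imprecise. For the 1732 probe sets whose mean over the 6 arrays was within 0.5 (log2) of that of ICL, the median SD within genotypes was 0.65, and the SD of ICL was 0.84. That mean lies between the WT and the transgenic signals of ICL, so the precision at the WT level was not measured. The size of the difference rests on WT signals near the bottom of the scale. With 16 added to each linear signal before the logarithm, which shrinks differences near the bottom, ICL was 7.96, 6.27 and 7.15 in 35S::OsHOX24 and 4.71, 4.32 and 4.54 in WT. The groups remained apart on that scale, and the log2 difference was 2.60 with a standard error of 0.41.

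**Figure D1:**
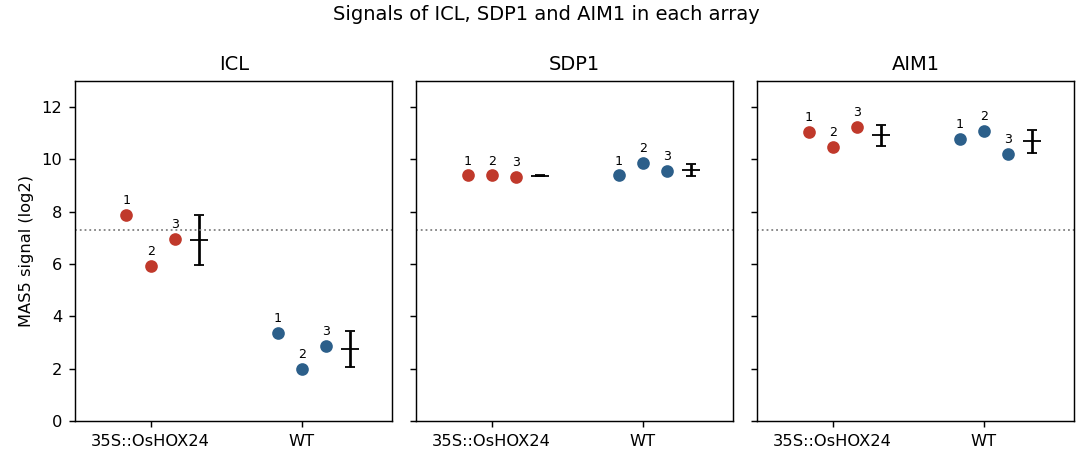
MAS5 signal (log2) of ICL, SDP1 and AIM1 in the 3 arrays of 35S::OsHOX24 (red) and the 3 arrays of WT (blue), with the replicate number above each point, the mean ± SD in black and the mean of the array medians as a dotted line. ICL lies between 5.94 and 7.87 in 35S::OsHOX24 and between 2.0 and 3.36 in WT, whereas SDP1 and AIM1 lie above the dotted line in every array and their genotypes are close together.

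SDP1, which acts at the first step of the pathway, had a steady signal. It was 9.39, 9.39 and 9.35 (log2) in replicates 1, 2 and 3 of 35S::OsHOX24, against 9.39, 9.86 and 9.57 in replicates 1, 2 and 3 of WT. All 3 transgenic arrays were below all 3 WT arrays, but replicate 2 of 35S::OsHOX24 and replicate 1 of WT differed by only -0.0034 on the log2 scale. The means were 9.37 ± 0.02 (log2, SD, n = 3) in 35S::OsHOX24 and 9.61 ± 0.24 (SD, n = 3) in WT, and the log2 difference was -0.23 with a standard error of 0.22. SDP1 was above 78.2% to 78.7% of probe sets in the transgenic arrays and above 78.3% to 83.6% in the WT arrays. The range between its arrays was 0.04 (log2) in 35S::OsHOX24 and 0.47 in WT, and replicate 2 of WT was the array farthest from the others. Without that array the log2 difference was -0.11.

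AIM1, which acts further on in the peroxisome, showed no separation of the genotypes. Its signal was 11.05, 10.48 and 11.23 (log2) in replicates 1, 2 and 3 of 35S::OsHOX24, against 10.78, 11.08 and 10.21 in replicates 1, 2 and 3 of WT. The groups overlapped, with the transgenic array higher in 6 of the 9 pairs of arrays. The means were 10.92 ± 0.39 (log2, SD, n = 3) in 35S::OsHOX24 and 10.69 ± 0.44 (SD, n = 3) in WT, a log2 difference of 0.23 with a standard error of 0.34. AIM1 was above 89.1% to 93.5% of probe sets in the transgenic arrays and above 87.2% to 92.9% in the WT arrays. Without replicate 3 of WT the log2 difference was -0.01, and without replicate 3 of 35S::OsHOX24 it was 0.07, so AIM1 has no direction here.

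SDP1 and AIM1 stood in the middle of the arrays' differences by size. Of all probe sets, 48.8% had a larger difference than SDP1 in either direction and 49.0% a larger one than AIM1. Among probe sets of similar signal, the median size of the difference was 0.14 (log2) at the level of SDP1 and 0.13 at the level of AIM1, against 0.41 at the level of ICL. The study called genes at a 2-fold difference or more with an unadjusted p of at most 0.05. With limma, 0.914% of all probe sets were higher in 35S::OsHOX24 at these thresholds and 1.61% lower, and no call is given for the 3 genes, which were chosen on this contrast. After Benjamini-Hochberg adjustment in limma 0 probe sets were under 0.05, whereas before adjustment 785 were so with limma, and the methods' t-test gave 798. Groups did not overlap for ICL, higher in all 3 transgenic arrays, nor for SDP1, lower in all 3, and over all probe sets 3.04% were higher and 4.13% lower without overlap. Nothing is read from these counts either.

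**Figure D2:**
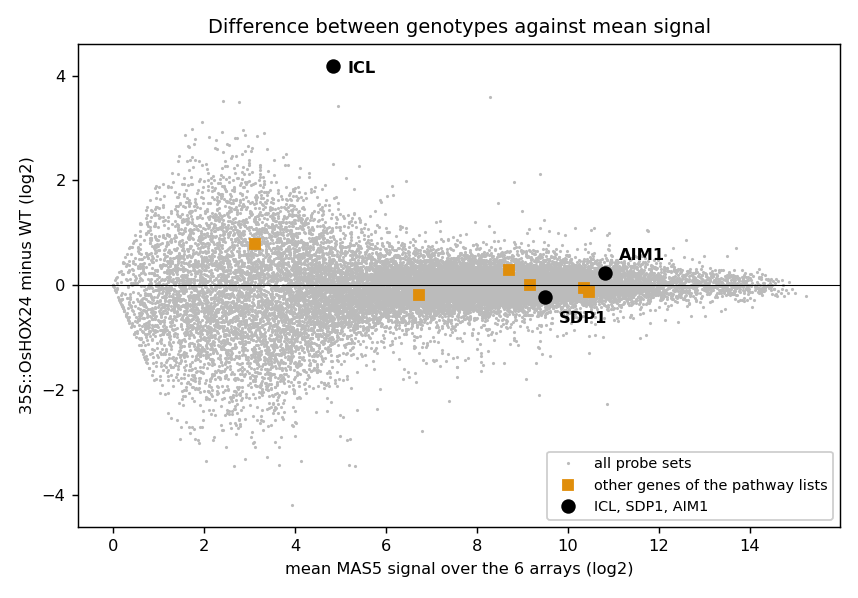
Log2 difference between 35S::OsHOX24 and WT against the mean signal over the 6 arrays (log2), with each of the 22746 probe sets as a grey point, ICL, SDP1 and AIM1 in black and the 6 other measured genes of the oil mobilization lists in orange. The spread of the differences widens towards low signals, and ICL, at 4.18, is the uppermost point.

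The 3 genes also varied between arrays of the same genotype in different ways. AIM1 was lowest in replicate 2 of 35S::OsHOX24, at 10.48, and in replicate 3 of WT, at 10.21, which were the 2 arrays with the largest GAPDH 3' minus 5' differences, 3.63 and 4.80. It was 11.23 and 11.08 in replicate 3 of 35S::OsHOX24 and replicate 2 of WT, the arrays with the smallest differences, 2.39 and 1.63. With the GAPDH difference as a covariate, which was added after seeing the data, the log2 difference of AIM1 was 0.19 with a standard error of 0.23. The actin and ubiquitin controls did not order the transgenic arrays as GAPDH did. Replicate 2 of 35S::OsHOX24 had the smallest 3' minus 5' difference of its genotype with both. For actin it was 6.01 (log2) there, against 6.57 in replicate 3 of 35S::OsHOX24. In WT both controls were largest in replicate 3 and smallest in replicate 2, as GAPDH was. The part of RNA integrity in the AIM1 values was not tested. ICL was lowest in replicate 2 of both genotypes, which had the largest GAPDH difference in 35S::OsHOX24, 3.63, and the smallest in WT, 1.63. Its log2 difference with the covariate was 4.21. The within-genotype SD of AIM1 was 0.42 (log2) and larger than that of 73.4% of probe sets of similar signal, whereas the SD of SDP1, 0.17, was larger than that of 14.1%.

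**Figure D3:**
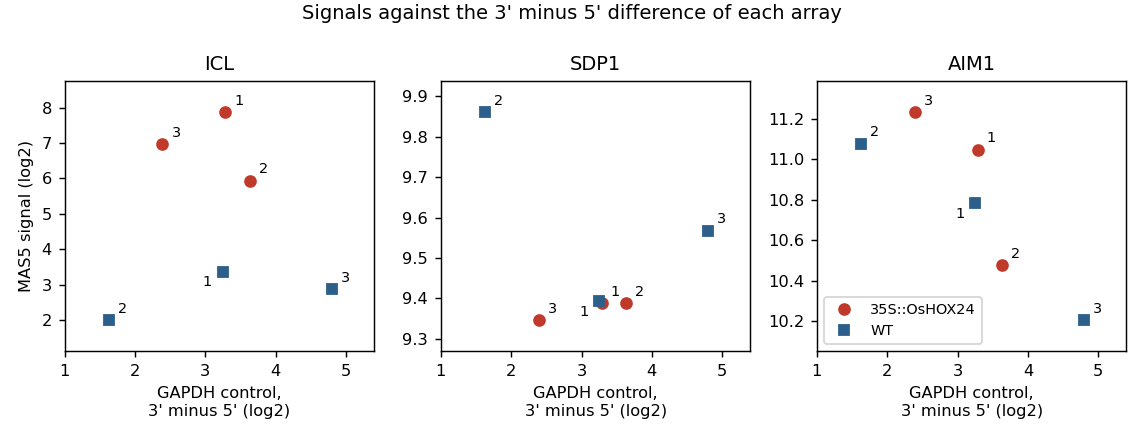
MAS5 signal (log2) of ICL, SDP1 and AIM1 against the GAPDH 3' minus 5' difference (log2) of each array, with 35S::OsHOX24 as red circles, WT as blue squares and the replicate number beside each point. The lowest AIM1 signals, 10.48 in 35S::OsHOX24 and 10.21 in WT, are in the 2 arrays with the largest GAPDH differences, whereas the ICL signals of the genotypes do not overlap. Each panel has its own vertical scale. The actin and ubiquitin controls, which order the transgenic arrays differently, are not shown.

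Of the 43 genes listed for oil mobilization, from lipolysis to gluconeogenesis, 9 had a single-gene probe set that could be named, so that 6 of the 40 genes other than ICL, SDP1 and AIM1 could be described. None of the 6 was past the study's thresholds in either direction with limma, where 2.53% of all probe sets were. A count of 0 among 6 genes is near that share. None had an unadjusted p under 0.05 with limma or with the methods' t-test. Their differences ran from -0.19 to 0.78 (log2) with a median of -0.02, and the median over all probe sets was -0.03. The listed genes of glycerol use and of fatty acid import and activation were not analysed here, nor were malate synthase and the other enzymes of the glyoxylate cycle.

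In lipolysis, SDP1-LIKE (AT3G57140), the homolog of SDP1, was 4.51, 1.42 and 4.58 (log2) in replicates 1, 2 and 3 of 35S::OsHOX24, against 1.10, 3.33 and 3.74 in replicates 1, 2 and 3 of WT. The lowest and the highest array of each genotype were more than 2-fold apart, the groups overlapped, and the log2 difference of 0.78 had a standard error of 1.10. Of the 2 other listed lipolysis genes, AT4G24160 was 9.16 ± 0.38 (log2, SD, n = 3) in 35S::OsHOX24 and 9.15 ± 0.55 (SD, n = 3) in WT. AT3G14360 was 6.63 ± 0.20 (log2, SD, n = 3) in 35S::OsHOX24 and 6.83 ± 0.10 (SD, n = 3) in WT. These 3 genes with SDP1 make up the whole lipolysis list, and its log2 differences ran from -0.23 to 0.78.

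Beside AIM1, 2 listed genes act around the core of beta-oxidation. SDRB (AT3G12800), a short-chain dehydrogenase-reductase also named DECR, was 10.35, 10.61 and 10.23 (log2) in replicates 1, 2 and 3 of 35S::OsHOX24, against 10.55, 10.57 and 10.48 in replicates 1, 2 and 3 of WT, with overlap and a log2 difference of -0.13. A second probe set of SDRB gave a log2 difference of -0.03 with a standard error of 0.58. The listed gene AT1G01710 was 9.02, 8.77 and 8.78 (log2) in replicates 1, 2 and 3 of 35S::OsHOX24, against 8.71, 8.32 and 8.67 in replicates 1, 2 and 3 of WT. Its groups did not overlap, and its log2 difference was 0.29 with a standard error of 0.23. The acyl-CoA oxidases, the thiolases and the second multifunctional protein were not analysed here.

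Downstream of the glyoxylate cycle, PPDK (AT4G15530), for pyruvate orthophosphate dikinase, which makes phosphoenolpyruvate from pyruvate, was 9.81, 10.74 and 10.45 (log2) in replicates 1, 2 and 3 of 35S::OsHOX24, against 9.60, 11.24 and 10.30 in replicates 1, 2 and 3 of WT. In both genotypes replicate 1 was the lowest and replicate 2 the highest, and the log2 difference was -0.05 with a standard error of 0.49. Of other genes of the peroxisome, the peroxin gene PEX4 and the photorespiration gene HPR, for hydroxypyruvate reductase, had log2 differences of -0.11 and 0.00. HPR was 13.64 ± 0.22 (log2, SD, n = 3) in 35S::OsHOX24 and 13.63 ± 0.19 (SD, n = 3) in WT.

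Isocitrate, the substrate of ICL, is also used by isocitrate dehydrogenases, and citrate by ATP-citrate lyase. These genes were picked by their symbols, and the list was added after the data had been read. None of the 10 measured genes was past the thresholds with limma, where 2.53% of all probe sets were. None had an unadjusted p under 0.05 with limma or with the methods' t-test, where 785 and 798 of the 22746 probe sets did. Neither count of 0 sets so few genes apart. The subunit genes IDH-V and IDH-VI of the mitochondrial enzyme had log2 differences of 0.01 and 0.24, and IDH-III and IDH-IV, with WT means of 1.15 and 1.73 (log2), of 0.13 and 0.84. The cytosolic enzyme gene cICDH was 13.61 ± 0.09 (log2, SD, n = 3) in 35S::OsHOX24 and 13.41 ± 0.27 (SD, n = 3) in WT, and ICDH was 8.13 ± 0.12 in 35S::OsHOX24 and 8.13 ± 0.26 in WT. The ATP-citrate lyase genes ACLA-1, ACLA-2, ACLA-3 and ACLB-1 had log2 differences of 0.03, 0.13, 0.02 and 0.08. Of the malate dehydrogenases outside the peroxisome, the plastid gene MDH and NADP-MDH had log2 differences of 0.42 and 0.47, with standard errors of 0.27 and 0.24. NADP-MDH was 11.79, 11.86 and 12.30 (log2) in replicates 1, 2 and 3 of 35S::OsHOX24 and 11.53, 11.63 and 11.40 in replicates 1, 2 and 3 of WT, without overlap, and MDH had overlap. The rises of these 12 genes were smaller than that of ICL. That was given in advance, as ICL had the largest rise of all probe sets.

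**Figure D4:**
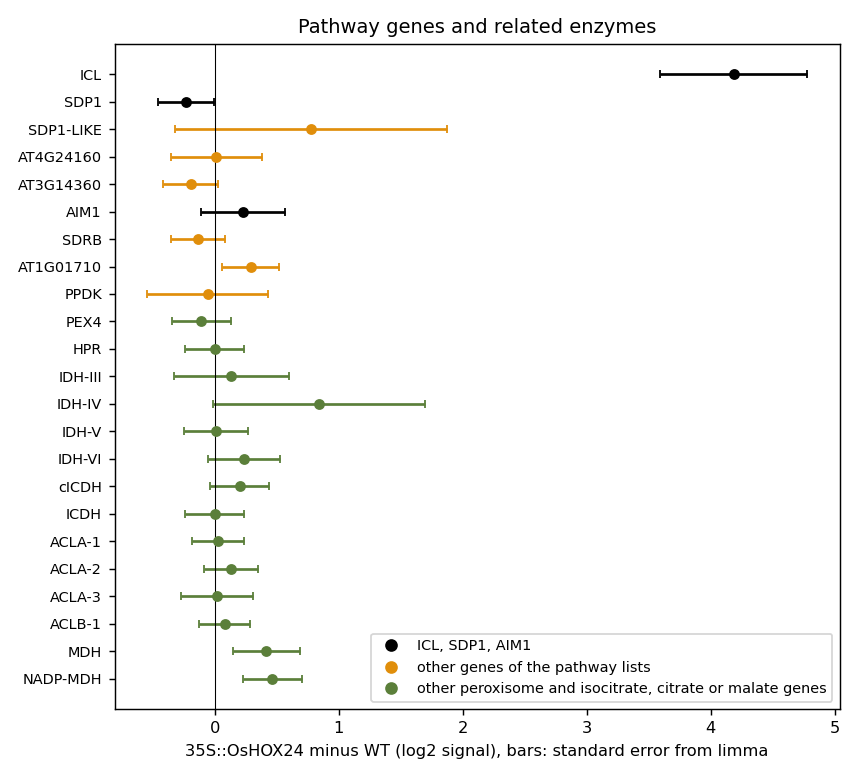
Log2 difference between 35S::OsHOX24 and WT for ICL, SDP1 and AIM1 (black), the other measured genes of the oil mobilization lists (orange) and other genes of the peroxisome or of isocitrate, citrate and malate use (green), with the standard error from limma as bars. ICL, at 4.18, stands apart from the other genes shown, whose differences lie between -0.23 and 0.84.

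Isocitrate lyase transcripts are abundant in oil-rich seeds and in starved tissue, so the markers of both were read beside ICL. Of 17 listed seed genes 3 could be named. The oleosin gene OLEO3 was 5.72, 5.29 and 5.67 (log2) in replicates 1, 2 and 3 of 35S::OsHOX24, against 5.49, 5.48 and 6.01 in replicates 1, 2 and 3 of WT. The listed gene AT3G01570 had a log2 difference of -0.30 and the vicilin-like gene PAP85 of 0.83, with standard errors of 0.36 and 0.60. No seed marker was listed at 0, and over the 3 genes and the 6 arrays together the signals were above 12.1% to 37.3% of probe sets. The summed linear signal of the 3 genes was 105.9 to 125 in 35S::OsHOX24 and 122.9 to 126.7 in WT. No transgenic array had a sum above the WT range. With 3 of 17 markers read, at low signals, a seed-like state of the seedlings was not tested.

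Of 14 listed genes of sugar starvation, 5 could be named, among them genes for the breakdown of the branched-chain amino acid leucine. MCCA, a subunit gene of methylcrotonyl-CoA carboxylase, was 9.81, 11.14 and 10.08 (log2) in replicates 1, 2 and 3 of 35S::OsHOX24, against 9.36, 10.78 and 11.30 in replicates 1, 2 and 3 of WT. IVD, for isovaleryl-CoA dehydrogenase, was 9.38, 10.50 and 9.98 in the transgenic arrays and 9.03, 10.50 and 10.09 in the WT arrays. The groups overlapped for both genes. The other 3, MCCB, ETFQO and D2HGDH, had log2 differences of 0.07, 0.22 and 0.17. None of the 5 was past the thresholds, as against 2.53% of all probe sets. None had an unadjusted p under 0.05 with limma or the methods' t-test, as against 785 and 798 of the 22746 probe sets. Counts of 0 among so few genes are near those shares. Their summed linear signal was 4034 to 7327 in 35S::OsHOX24 and 3191 to 7057 in WT. Genes of peroxisomal hydrogen peroxide removal, triacylglycerol synthesis, seed regulation and senescence were listed and not analysed here.

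The genes whose array pattern was most like that of each gene were taken from 9435 single-gene probe sets whose mean signal was above the 25th percentile, by Pearson's r over the 6 arrays. For ICL they were AT1G18910, AT5G52970, AT5G55790, AT4G25370 and AT1G57770, with r of 0.98 to 0.99. All 5 were higher in every transgenic array than in every WT array, as a pattern like that of ICL requires, but their log2 differences were 0.39 to 1.98. AT5G55790 came closest in size, with 7.55, 7.32 and 7.44 (log2) in replicates 1, 2 and 3 of 35S::OsHOX24, against 5.83, 4.99 and 5.55 in replicates 1, 2 and 3 of WT. Its WT arrays stood in the same order as those of ICL. For SDP1 the list was AT5G44080, AT2G38820, AT3G11780, CSLC6 and AT5G40470, with r of 0.97 to 0.99, and each had its highest signal in replicate 2 of WT. For AIM1 it was AT5G63990, AT3G10260, AT5G12420, AT1G54540 and AT5G41950, with r of 0.99, and each had its lowest signal in replicate 3 of WT. An r above 0.9 with AIM1 was found for 146 of these probe sets, with SDP1 for 51 and with ICL for 39. With 6 arrays these values only describe likeness.

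The difference of ICL kept its direction in each of the 14 alternatives that were run, between 2.60 and 4.68 (log2), and the lowest value was that with 16 added to the signal. Leaving out 1 array at a time gave 3.71 to 4.68. SDP1 was lower in 35S::OsHOX24 in all 14, between -0.35 and -0.11. The groups of ICL and of SDP1 did not overlap, so leaving out arrays or adding 16 could not change their direction. The replicate block could not change any of the differences, as each number has 1 array of each genotype. AIM1 was higher in 35S::OsHOX24 in 13 of 14, between -0.01 and 0.45, the exception being the set without replicate 3 of WT.

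**Figure D5:**
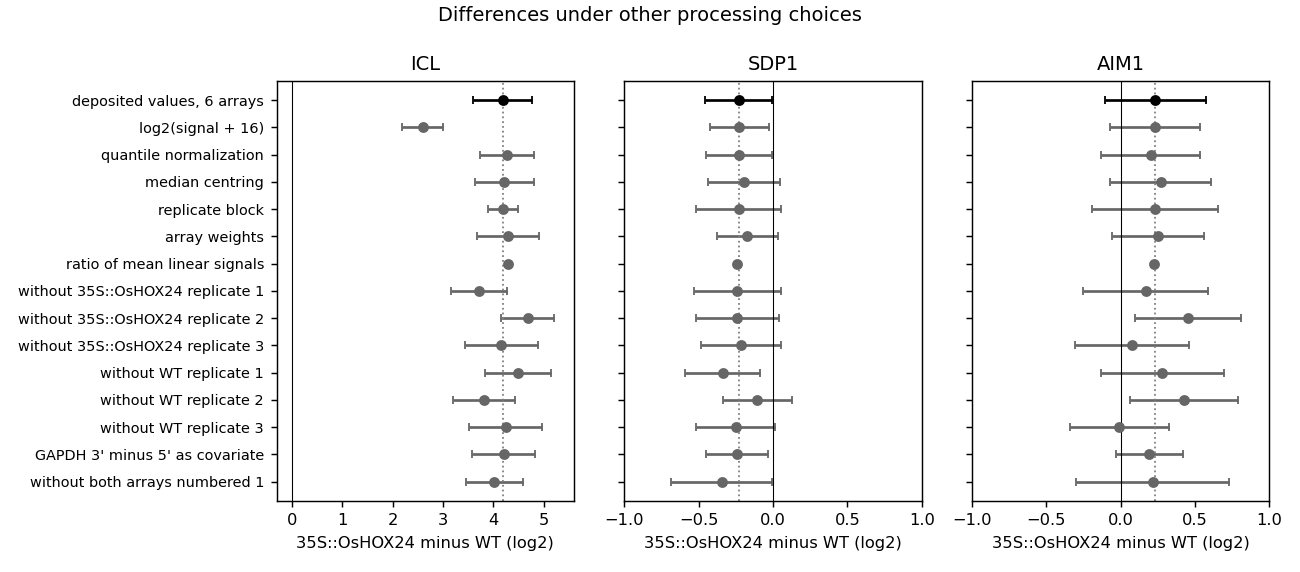
Log2 difference between 35S::OsHOX24 and WT for ICL, SDP1 and AIM1 with the deposited values (top row and dotted line) and under each of 14 alternatives, with the standard error as bars where the fit gives one. ICL stays between 2.60 and 4.68, whereas AIM1 reaches -0.01 without replicate 3 of WT; the horizontal scale of ICL differs from that of SDP1 and AIM1.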

How the data were processed

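Per the submitters' processing notes the signals of the 6 arrays come from MAS5, whose version is not given in the sources used here. The authors deposited them as log2 values in 1 table. Back on the linear scale, each array had a trimmed mean of 500.1 (2% left out at each end). Arrays were grouped by the genotype in the labels, and according to the study the 3 arrays of a genotype are independent biological replicates. After leaving out 64 control probe sets, 22746 probe sets were fitted with lmFit and eBayes of limma 3.58.1, run in R 4.3.3, without covariates or a filter on low signals, and p-values were adjusted by Benjamini-Hochberg. The methods' t-test, Student's with equal variances, was run on the same values. The scripts were tested on simulated data.

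Of 13513 probe sets with 1 gene, 13436 were matched to RefSeq (assembly TAIR10.1) by gene identifier; 503 had several genes and 8730 were not named. A gene with several probe sets was taken from that with the highest mean. Named genes are ICL, SDP1 and AIM1, the measured genes of the oil mobilization lists, up to 4 genes of every other list by lowest p, and the 5 genes most like each of the 3 in pattern; the enzymes of isocitrate, citrate and malate use, IVD and the neighbours of each gene on its chromosome were added later. The genes and lists were chosen with earlier results of these data known. The number of arrays limits the precision.

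The alternatives were log2(signal + 16), quantile normalization, median centring, the replicate number as a block, array weights, a ratio of mean linear signals, a variance trend, a filter at the 40th percentile of signal, and leaving out each array. The GAPDH covariate and leaving out the arrays numbered 1 of both genotypes were added after seeing the data.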

Additional observations from a re-analysis of the deposited data

How the results depend on the processing

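For ICL, 13 of the 14 alternatives moved the log2 difference of 4.18 by less than the SD within genotypes, and log2(signal + 16) gave 2.60, because that offset exceeds the WT signals. For SDP1 and AIM1 all 14 moved it by less than that SD. ICL is left out above the 40th percentile of signal, as its mean is below it. None of the 6 other measured genes of the pathway lists was past the study's thresholds in any of 13 settings. With the deposited values 2.53% of all probe sets were, so a count of 0 among 6 genes is near that share. The filter at the 40th percentile also leaves out SDP1-LIKE, which could not be called there. Over all probe sets, 208 were higher and 367 lower. These counts were 29 and 85 with log2(signal + 16), 112 and 180 with the methods' t-test, and 17 and 40 with dim probe sets (below the 40th percentile) removed. Without 1 array at a time there were 220 to 316 higher, the highest without WT replicate 1, and 347 to 494 lower. Quantile normalization gave 264 and 303, so that the share of higher calls was larger. With the replicate number as a block, the log2 differences stayed at 4.18 for ICL, -0.23 for SDP1 and 0.23 for AIM1. The design fixes this, as each number has 1 array of each genotype, so the block is no check of the differences. Their standard errors were 0.30, 0.29 and 0.42 with the block, against 0.59, 0.22 and 0.34 without it. With the block, 259 probe sets were higher and 419 lower. The deviations of arrays with the same number correlated at 0.11, -0.20 and -0.18, and those of arrays with different numbers at -0.12 to 0.29. These correlations do not show a pairing by number, but they are too few to exclude one. ICL itself was highest in replicate 1 and lowest in replicate 2 of both genotypes. Whether the numbers pair the arrays was not tested. Low signals limit ICL most, as its WT values were 4.01 to 10.3 on the linear scale.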

Other observations

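The nearest measured neighbours of each gene on its chromosome, 3 on each side, were also read. ICL had the largest rise of all probe sets, so smaller rises around it were given in advance. Around ICL, SGP2 and UGT71B1, a UDP-glycosyltransferase gene, had log2 differences of -0.20 and -0.29, and the others, AT3G21690, AT3G21670, AT3G21770 and UGT71B6, of 0.14, 0.72, -0.17 and -0.69. The 6 genes overlapped between genotypes, and none was past the study's thresholds with limma, where over all probe sets 3.04% were higher and 4.13% lower without overlap and 2.53% were past the thresholds. Counts of 0 among 6 genes are near those shares. Its immediate neighbours on both sides were not analysed here. The 6 measured neighbours of SDP1 had log2 differences of -0.42 to 0.24 and those of AIM1 of -0.32 to 0.28, with overlap in each. Next to AIM1, AT4G29020 was 12.52, 11.74 and 13.18 (log2) in replicates 1, 2 and 3 of 35S::OsHOX24, against 12.49, 12.59 and 11.51 in replicates 1, 2 and 3 of WT. Like AIM1, AT4G29020 was highest in replicate 3 of 35S::OsHOX24 and lowest in replicate 3 of WT. The next gene, AT4G29030, was instead highest in replicate 1 of WT, at 11.59, and lowest in replicate 2 of WT, at 10.79. Patterns like that of AIM1 were common, with an r above 0.9 for 146 of 9435 probe sets.

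The root hair expansin gene EXPA7 had 4.69, 4.70 and 5.45 (log2) in replicates 1, 2 and 3 of 35S::OsHOX24, against 2.86, 5.47 and 3.28 in replicates 1, 2 and 3 of WT. The log2 difference of 1.08 had a standard error of 0.72, and replicate 2 of WT was above every transgenic array.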
